A study of Homo sapiens with 24 samples.

Results

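Aminoacyl-tRNA synthetases are the enzymes that join each amino acid to its tRNA, and 35 nuclear genes encode the members described here, 35 of 60675 gene identifiers measured. They were taken by gene symbol, with the older symbol without its final 1 accepted (AARS for AARS1). Each member matched 1 identifier. A total of 19 encode cytosolic synthetases and 16 encode mitochondrial ones. RNA was sequenced from HCT116, a human colorectal carcinoma line, in 3 versions that carry wild-type p53 (WT), mutant p53 (Mutant) or no p53 (Null). Cells received 20 uM APR-246 (APR-246), 6 Gy of irradiation (Irradiation), 6 Gy after pretreatment with 20 uM APR-246 (Combination), or the solvent alone (Solvent). The medium of all 3 lines was McCoy 5A with 10% FBS, and RNA was collected 72 hours after irradiation. Each of the 12 groups has 2 libraries, 24 in all, so each treatment has 6 libraries over the 3 lines. APR-246 is a small molecule developed to refold mutant p53, whose active product also binds free thiols. Each p53 status is 1 line, so p53 status and any other difference between the lines cannot be told apart.

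Cytosolic synthetases charge the tRNAs that feed protein synthesis on cytosolic ribosomes, and a share of them sits in a multisynthetase complex held together by scaffold proteins. Mitochondrial synthetases are made in the cytosol, imported, and charge the tRNAs encoded by mitochondrial DNA. When uncharged tRNA accumulates, the kinase GCN2 (EIF2AK4) phosphorylates the initiation factor eIF2, which favours translation of the transcription factor ATF4, and ATF4 in turn raises transcription of amino acid enzymes, transporters and many cytosolic synthetases.

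The libraries hold 53184139 to 58058729 assigned reads each. The p53 target CDKN1A ran from 88.7 to 240 CPM (counts per 1000000 assigned reads) in Mutant and from 140 to 357 CPM in Null, against 508 to 2253 CPM in WT. Summed epithelial markers reached 4773 to 17230 CPM per library and blood cell markers at most 0.507 CPM. Among the epithelial markers the villus protein VIL1 stayed between 0.035 and 1.52 CPM. WT APR-246 library 1 stood apart from its partner. Its median cytosolic member lay at -0.19 on the log2 scale relative to WT Solvent, against -0.88 in WT APR-246 library 2, and counts of members called and list medians that move by over 1.5 times without it are given both ways. Libraries also differed in how their values followed the GC content of genes. The slope of log2 level per 10 points of gene GC was -0.53, -0.65 and -0.25 in Solvent library 1 of WT, Mutant and Null, and 0.26, 0.23 and 0.34 in Solvent library 2.

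In Solvent the cytosolic synthetases were the abundant ones. Levels between genes were compared as CPM per kilobase of exon, as means with SD over the 6 Solvent libraries of the 3 lines. The 19 cytosolic members ranged from 10.2 to 296 with a median of 44.5. The 16 mitochondrial members ranged from 0.0242 to 20.2 with a median of 5.29. AARS1, which charges alanine tRNA, was highest at 296 ± 21.5 (SD, n = 6). VARS1, for valine, followed at 132 ± 47.9 (SD, n = 6), and SARS1, for serine, at 117 ± 11.2 (SD, n = 6). VARS1, SARS1 and FARSA, the catalytic subunit for phenylalanine (114 ± 38.6), did not differ beyond their spread. IARS2, for mitochondrial isoleucine, was the top mitochondrial member at 20.2 ± 9.68 (SD, n = 6). It was the one mitochondrial member above any cytosolic member, since HARS1, for histidine, was the lowest cytosolic gene at 10.2 ± 1.54 (SD, n = 6). VARS2, at 0.0242, was near the floor, with 0.0694 to 0.355 CPM in Solvent where 3 reads correspond to 0.0517 to 0.0564 CPM.

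**Figure D1:**
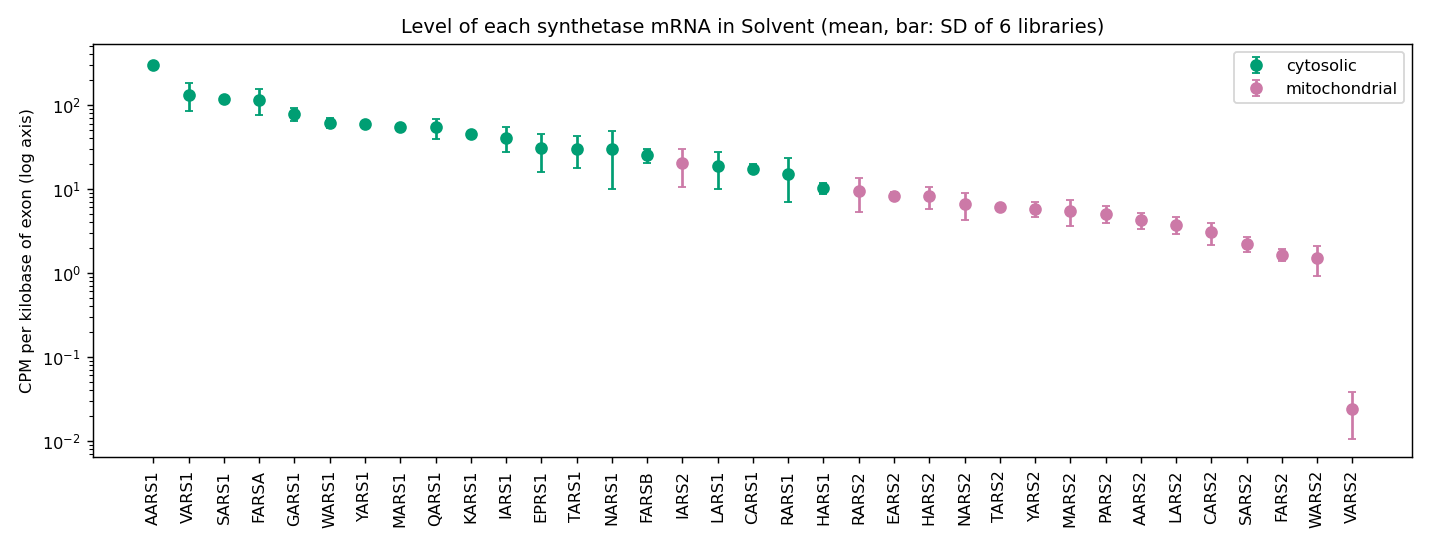
Level of each synthetase mRNA in the 6 Solvent libraries, as CPM per kilobase of exon on a log axis, ordered by level, with the colour giving the compartment. Points are means and bars SD over the 6 libraries, and AARS1 has the highest mean at 296 while VARS2 has the lowest at 0.0242.

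Promoters of 30 of the 35 members were found in the RefSeq promoter table of GRCh38.p14, which spans 250 bases before to 50 bases after each annotated start. AARS2, LARS1, VARS1, VARS2 and YARS1 had no entry. The letters TTGCATCA, an amino acid response element to which ATF4 with a C/EBP partner is known to bind, were searched on both strands. They occurred in 6 of 16 cytosolic genes with a promoter and 0 of 14 mitochondrial ones, where 0.866% of 35116 human promoters held them. A member gene counted if any of its promoters matched, and the 30 genes have 39 promoters. Shares of all promoters are per promoter, so the units differ, here and for the letters searched below. The 6 windows of 30 bases are shown because they cover members on which the results below turn, AARS1, CARS1, TARS1, MARS1 and IARS1, and NARS1, which passed the test in none of the 3 treatments. Capitals mark the match, and each window is read 5′ to 3′ along the gene.
AARS1 (chr16:70289675-70289704, minus strand, 187 bases before the start): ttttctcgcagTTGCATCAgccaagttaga
CARS1 (chr11:3057407-3057436, minus strand, 2 bases before the start): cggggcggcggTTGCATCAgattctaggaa
IARS1 (chr9:92293692-92293721, minus strand, 13 bases before the start): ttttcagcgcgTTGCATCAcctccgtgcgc
MARS1 (chr12:57488053-57488082, plus strand, 4 bases before the start): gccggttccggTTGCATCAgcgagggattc
TARS1 (chr5:33440956-33440985, plus strand, 3 bases into the transcript): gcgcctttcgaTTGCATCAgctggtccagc
NARS1 (chr18:57621804-57621833, minus strand, 15 bases into the transcript, match on the opposite strand): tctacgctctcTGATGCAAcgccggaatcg

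The looser letters TGATGNAA, which take in every match above, were in 7 of 16 cytosolic and 1 of 14 mitochondrial genes and in 3.62% of all promoters. The added genes were GARS1, for glycine, and YARS2, for mitochondrial tyrosine. WARS1, for tryptophan, is also known as an interferon-inducible gene. Its promoter window held the core of an interferon-stimulated response element, searched on both strands as TTTC, any 2 bases and TTTC, as did 1 of 14 mitochondrial genes (EARS2) and 3.57% of all promoters. A match describes these letters and is not evidence of a bound site.
GARS1 (chr7:30594834-30594863, plus strand, 33 bases before the start, match on the opposite strand): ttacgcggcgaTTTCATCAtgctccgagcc
YARS2 (chr12:32756076-32756105, minus strand, 197 bases before the start): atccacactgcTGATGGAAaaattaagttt
WARS1 (chr14:100375383-100375412, minus strand, 55 bases before the start, match on the opposite strand): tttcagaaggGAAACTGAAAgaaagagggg

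After irradiation most cytosolic synthetase mRNAs were lower and most mitochondrial ones were not. Averaged over the 3 lines, 12 of 19 cytosolic members fell and 0 rose, while 1 of 16 mitochondrial members fell and 2 rose. Over all members this is 15 of 35 called at an adjusted p of 0.05, where 13% of the 20668 genes tested were called, 6.84% higher and 6.13% lower. The median log2 change was -0.88 for the cytosolic list and 0.09 for the mitochondrial list, beside -0.01 for all genes. All 35 members passed the filter on low values. Ranges and overlaps of groups below are of CPM as deposited, while the changes and tests used CPM scaled between libraries by TMM. Overlaps were not counted again after scaling, so the sets with and without overlap hold for the deposited CPM only. In bulk RNA, fewer cells that express a gene and less of its RNA per cell cannot be told apart.

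WARS1 and AARS1 showed the strongest falls after irradiation. WARS1 (chromosome 14, 100333788 to 100376805, minus strand, GRCh38 with GENCODE 29, as for all gene positions here) had 93.8 and 103 CPM in WT, 102 and 104 CPM in Mutant, and 105 and 101 CPM in Null after irradiation, against 420.2 and 444 CPM in WT, 368 and 381 CPM in Mutant, and 426 and 307 CPM in Null in Solvent. AARS1 (chromosome 16, 70252295 to 70289543, minus strand) had 267 and 271 CPM in WT, 467 and 461 CPM in Mutant, and 480.0 and 465 CPM in Null after irradiation, against 1250 and 1336 CPM in WT, 1195 and 1431 CPM in Mutant, and 1439 and 1332 CPM in Null in Solvent. For both genes all 6 irradiated libraries lay below all 6 Solvent libraries, and in irradiated cells the level of AARS1 was lower in WT than in Mutant or Null. WARS1 was 3.86-fold lower (log2 -1.95, SE 0.28, adjusted p = 0.000522) and AARS1 3.46-fold lower (log2 -1.79, SE 0.27, adjusted p = 0.000737).

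GARS1, YARS1, SARS1 and CARS1 formed the next tier. GARS1 (chromosome 7, 30594681 to 30634033, plus strand), whose product serves cytosol and mitochondria alike, had 111 and 104 CPM in WT, 121 and 122 CPM in Mutant, and 133 and 107 CPM in Null after irradiation, against 345 and 261 CPM in WT, 388 and 295 CPM in Mutant, and 398 and 269.9 CPM in Null in Solvent. YARS1, for tyrosine, had 152 and 174 CPM in WT, 212 and 216 CPM in Mutant, and 185 and 198 CPM in Null after irradiation, against 434 and 496 CPM in WT, 459 and 515 CPM in Mutant, and 515 and 523 CPM in Null in Solvent. The groups did not overlap for either gene, and the fall was 2.81-fold for GARS1 (log2 -1.49, SE 0.19, adjusted p = 0.00023) and 2.63-fold for YARS1 (log2 -1.40, SE 0.24, adjusted p = 0.00174). SARS1 (chromosome 1, 109213918 to 109238169, plus strand) had 167 and 183 CPM in WT, 194 and 197 CPM in Mutant, and 184 and 201 CPM in Null after irradiation, against 394 and 456 CPM in WT, 396 and 455 CPM in Mutant, and 492 and 489.6 CPM in Null in Solvent. CARS1, for cysteine, had 70.4 and 60.8 CPM in WT, 87.5 and 84.5 CPM in Mutant, and 91.3 and 71.7 CPM in Null after irradiation, against 184 and 147 CPM in WT, 183 and 167 CPM in Mutant, and 207 and 164 CPM in Null in Solvent. Again no irradiated library reached a Solvent library, with falls of 2.41-fold for SARS1 (log2 -1.27, SE 0.25, adjusted p = 0.00404) and 2.29-fold for CARS1 (log2 -1.20, SE 0.19, adjusted p = 0.000834). IARS1, for isoleucine (log2 -0.87, adjusted p = 0.00174), and MARS1, for methionine (log2 -0.88, adjusted p = 0.0161), also fell without overlap. On CPM as deposited these 8 cytosolic genes were the only members whose 6 irradiated libraries all lay below all 6 Solvent libraries. Of genes tested 1.75% did so, and 0 members lay above, where 4.05% of genes did. Taken line by line, both irradiated libraries lay below both Solvent libraries in all 3 lines for 10 members, these 8 with FARSB and TARS1, where 3.39% of genes did.

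In the other 4 called cytosolic genes the irradiated and Solvent ranges of CPM as deposited overlapped. EPRS1, which charges glutamate and proline tRNAs, had 125 and 52.3 CPM in WT, 69.4 and 45.5 CPM in Mutant, and 92.7 and 44.7 CPM in Null after irradiation, against 259 and 101 CPM in WT, 247.5 and 99.3 CPM in Mutant, and 201 and 88.9 CPM in Null in Solvent. TARS1, for threonine, had 107 and 60.0 CPM in WT, 80.9 and 64.1 CPM in Mutant, and 96.7 and 60.6 CPM in Null after irradiation, against 240.4 and 109.5 CPM in WT, 256 and 112 CPM in Mutant, and 212 and 106 CPM in Null in Solvent. For both genes library 1 of each Solvent group was the higher one. EPRS1 fell by 1.19 (SE 0.26, adjusted p = 0.00672) and TARS1 by 1.09 (SE 0.21, adjusted p = 0.00329) on the log2 scale. LARS1, for leucine (log2 -0.99, adjusted p = 0.0208), and FARSB, the second subunit of the phenylalanine enzyme (log2 -0.49, adjusted p = 0.0141), were the other 2. On CPM as deposited, without the TMM scaling between libraries, the calls of EPRS1, FARSB, LARS1 and TARS1 ended. The call of LARS1 also ended without library 1 of any Solvent group or library 2 of any Irradiation group, that of FARSB without Mutant Irradiation library 1, and that of MARS1 without Mutant or Null Irradiation library 1.

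The other 7 cytosolic members did not pass the test after irradiation. KARS1, for lysine, whose product also serves both compartments, had 185 and 159 CPM in WT, 169 and 172 CPM in Mutant, and 189 and 171 CPM in Null after irradiation, against 186 and 171 CPM in WT, 174 and 167 CPM in Mutant, and 209 and 178 CPM in Null in Solvent. The ranges overlapped and its log2 change was -0.07 (SE 0.18, adjusted p = 0.816). NARS1, for asparagine, had a change of -0.88 with a large error (SE 0.37, adjusted p = 0.126), and its Solvent libraries ran from 45.6 to 217 CPM. HARS1 (-0.04), RARS1, for arginine (-0.21), QARS1, for glutamine (0.16), VARS1 (0.45) and FARSA (0.56) had adjusted p-values from 0.398 to 0.893. VARS1 and FARSA are GC-rich, and with the GC slope of each library as a covariate their changes were -0.08 and 0.03. FARSA and FARSB, which encode the subunits of 1 enzyme, thus had log2 changes of 0.56 and -0.49.

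**Figure D2:**
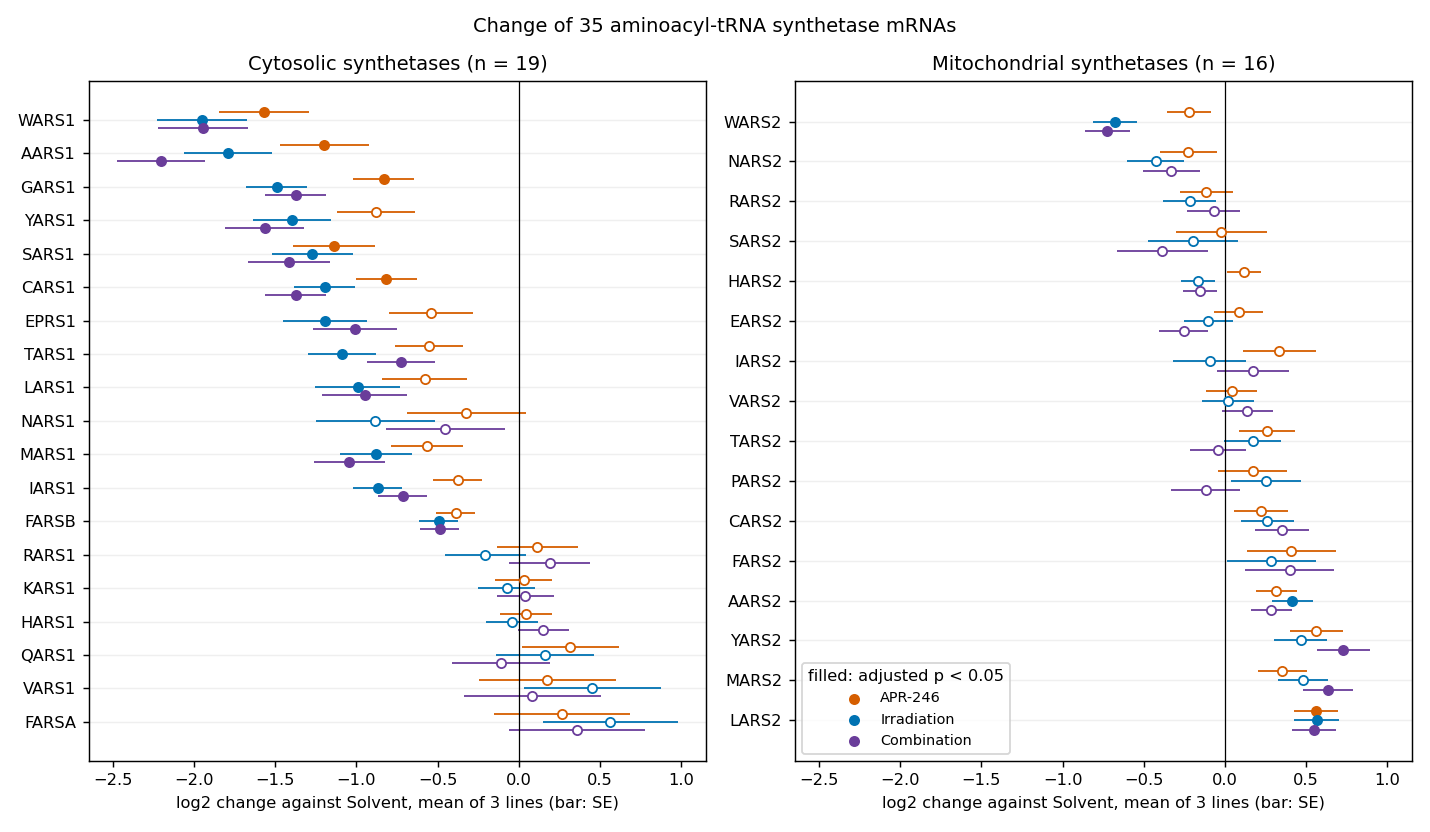
Log2 change against Solvent of each synthetase mRNA as the mean of 3 lines, cytosolic members on the left and mitochondrial members on the right, with bars of 1 SE from limma. Filled points passed an adjusted p of 0.05. WARS1 and AARS1 reach -1.95 and -1.79 after irradiation, while LARS2 lies at 0.57.

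Among mitochondrial members LARS2, for leucine, rose and WARS2, for tryptophan, fell after irradiation. LARS2 (chromosome 3, 45388506 to 45549421, plus strand) had 42.0 and 33.7 CPM in WT, 40.7 and 41.1 CPM in Mutant, and 42.4 and 29.8 CPM in Null after irradiation, against 31.9 and 21.3 CPM in WT, 33.2 and 23.5 CPM in Mutant, and 25.7 and 18.5 CPM in Null in Solvent. Both irradiated libraries exceeded both Solvent libraries within each line, although the pooled ranges overlapped, and the rise was 1.48-fold (log2 0.57, SE 0.14, adjusted p = 0.014). The call ended without library 2 of WT Irradiation or of Mutant Irradiation. WARS2 (chromosome 1, 119031216 to 119140671, minus strand) had 5.37 and 2.80 CPM in WT, 3.17 and 3.37 CPM in Mutant, and 3.44 and 2.10 CPM in Null after irradiation, against 8.27 and 5.02 CPM in WT, 8.69 and 4.12 CPM in Mutant, and 5.18 and 3.19 CPM in Null in Solvent. It fell 1.6-fold (log2 -0.68, SE 0.14, adjusted p = 0.00442) with overlapping ranges. AARS2, for alanine, also passed the test (log2 0.42, SE 0.13, adjusted p = 0.0408), a call kept in 5 of the 24 fits that each left out 1 library. On CPM as deposited the calls of AARS2 and WARS2 ended. MARS2, for methionine (0.48, adjusted p = 0.0508), and YARS2 (0.47, adjusted p = 0.0728) missed the threshold, and the other 11 had changes from -0.43 (NARS2) to 0.29 (FARS2). Members with both irradiated libraries above both Solvent libraries in all 3 lines were YARS2 and LARS2, 2 of 35. Of genes tested 9.43% were so placed, a share the members did not exceed.

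The same amino acid could be compared across compartments for 13 pairs of genes. After irradiation the cytosolic gene had the lower log2 change in 10 of 13 pairs, with a median difference of -1.26. The widest pair was alanine, where AARS1 minus AARS2 was -2.21, and the pair that went furthest the other way was valine, with 0.43. Histidine and arginine were the other 2 pairs above 0. The difference of the list medians, cytosolic minus mitochondrial, was -0.98 after irradiation, and it ranged from -1.22 to -0.93 when each library was left out in turn.

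The cytosolic list was also divided by what its members are known for, and since these divisions were made with earlier results of these data known, they are no independent result. After irradiation, where 6.13% of genes tested fell, 11 of the 13 members often listed as ATF4 targets fell, all but NARS1 and VARS1, with a median of -1.19. Of the 6 not so listed FARSB fell, and their median was -0.06. Members of the multisynthetase complex fell in 4 of 7 cases (EPRS1, IARS1, LARS1 and MARS1) and free enzymes in 8 of 12. Of the class I enzymes 7 of 10 fell, and of the class II enzymes 5 of 9. EPRS1, which charges both glutamate and proline tRNAs, was counted as class I only. Of the 6 members with TTGCATCA in the windows shown above, 5 fell and NARS1 did not pass the test. WARS1, SARS1, GARS1, EPRS1 and FARSB fell with no such letters in their promoter windows, and YARS1 and LARS1, which fell too, had no promoter entry.

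The combination gave much the same set of genes. Averaged over the lines 12 of 19 cytosolic members fell and 0 rose, and of the 16 mitochondrial members 1 fell and 3 rose. This makes 16 of 35 members called, where 13.9% of genes tested were called, 7.63% higher and 6.29% lower. The 12 cytosolic genes were those called after irradiation, a comparison that shares its 6 Solvent libraries. The median log2 change was -0.72 for the cytosolic list, 0.05 for the mitochondrial list and 0.01 for all genes.

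AARS1 showed the largest change of any member. It had 255 and 181 CPM in WT, 403 and 370.2 CPM in Mutant, and 452 and 316 CPM in Null in the combination, against 1195 to 1439 CPM in Solvent. All 6 treated libraries lay under all Solvent libraries, and the fall was 4.6-fold (log2 -2.20, SE 0.27, adjusted p = 0.000191). WARS1 had 100.1 and 109.9 CPM in WT, 108 and 114 CPM in Mutant, and 122 and 108 CPM in Null in the combination, against 307 to 444 CPM in Solvent. The 6 treated libraries lay within a narrow band, and WARS1 fell 3.84-fold (log2 -1.94, SE 0.28, adjusted p = 0.000383).

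YARS1, SARS1, GARS1 and CARS1 followed, as after irradiation. YARS1 had 164 and 141 CPM in WT, 203 and 198 CPM in Mutant, and 206 and 180.3 CPM in Null in the combination, against 434 to 523 CPM in Solvent, and fell 2.96-fold (log2 -1.56, SE 0.24, adjusted p = 0.000633). SARS1 had 188 and 175 CPM in WT, 170.5 and 183 CPM in Mutant, and 202 and 178 CPM in Null in the combination, against 394 to 492 CPM in Solvent, and fell 2.67-fold (log2 -1.42, SE 0.25, adjusted p = 0.00163). No treated library of either gene reached 210 CPM or the Solvent range. GARS1 had 152 and 137 CPM in WT, 148 and 126 CPM in Mutant, and 161 and 98.6 CPM in Null in the combination, against 261 to 398 CPM in Solvent. CARS1 had 69.9 and 62.9 CPM in WT, 87.5 and 75.4 CPM in Mutant, and 86.0 and 61.9 CPM in Null in the combination, against 147 to 207 CPM in Solvent. These 2 genes had the same log2 change, -1.37 (SE 0.19, adjusted p = 0.00031), which is 2.59-fold lower. With MARS1 (log2 -1.04, SE 0.22, adjusted p = 0.00531) the 7 genes formed the set with no overlap, on CPM as deposited, between 6 and 6 libraries. Of genes tested 1.71% lay below and 3.64% above.

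In the other 5 called cytosolic genes the combination and Solvent ranges of CPM as deposited overlapped. EPRS1 had 162 and 121 CPM in WT, 101 and 53.5 CPM in Mutant, and 94.1 and 29.3 CPM in Null in the combination, against 88.9 to 259 CPM in Solvent, and fell by 1.01 on the log2 scale (SE 0.26, adjusted p = 0.0159). TARS1 had 150.0 and 145 CPM in WT, 134 and 76.8 CPM in Mutant, and 122 and 51.9 CPM in Null in the combination, against 106 to 256 CPM in Solvent, and fell by 0.72 (SE 0.21, adjusted p = 0.0308). Null Combination library 2 was the lowest for both genes. LARS1 (-0.95, adjusted p = 0.0247), IARS1 (-0.71, adjusted p = 0.00521) and FARSB (-0.49, adjusted p = 0.0135) fell too. On CPM as deposited the calls of EPRS1, FARSB, IARS1, LARS1, TARS1, MARS2 and WARS2 ended. Leaving out 1 library ended the call of TARS1 in 7 of 24 cases, of LARS1 in 6, of EPRS1 in 4 and of LARS2 in 2, which were library 2 of WT Combination and of Mutant Combination. KARS1 had 221 and 221 CPM in WT, 188 and 184 CPM in Mutant, and 241 and 172 CPM in Null in the combination, against 167 to 209 CPM in Solvent, a log2 change of 0.04 (SE 0.18, adjusted p = 0.912). NARS1 (-0.45, adjusted p = 0.469) and FARSA (0.36, adjusted p = 0.636) did not pass the test either, nor did HARS1 (0.15), QARS1 (-0.11), RARS1 (0.19) and VARS1 (0.08).

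YARS2, MARS2 and LARS2 were the mitochondrial members that rose in the combination. YARS2 had 27.0 and 32.6 CPM in WT, 17.4 and 15.2 CPM in Mutant, and 28.1 and 19.1 CPM in Null in the combination, against 14.8 and 10.1 CPM in WT, 12.4 and 9.68 CPM in Mutant, and 15.9 and 11.3 CPM in Null in Solvent. Treated libraries exceeded Solvent libraries within every line, and YARS2 rose 1.66-fold (log2 0.73, SE 0.16, adjusted p = 0.00758). MARS2 had 36.3 and 37.7 CPM in WT, 30.8 and 18.7 CPM in Mutant, and 31.1 and 16.1 CPM in Null in the combination, against 18.6 and 15.4 CPM in WT, 18.8 and 9.001 CPM in Mutant, and 25.5 and 12.3 CPM in Null in Solvent. Its ranges overlapped through Null and Mutant library 2, and it rose 1.55-fold (log2 0.64, SE 0.15, adjusted p = 0.0114). LARS2 had 42.5 and 46.1 CPM in WT, 44.0 and 40.3 CPM in Mutant, and 42.1 and 30.1 CPM in Null in the combination, against 18.5 to 33.2 CPM in Solvent, and rose 1.46-fold (log2 0.55, SE 0.14, adjusted p = 0.0148). WARS2 had 5.85 and 5.97 CPM in WT, 4.01 and 2.58 CPM in Mutant, and 2.44 and 1.57 CPM in Null in the combination, against 3.19 to 8.69 CPM in Solvent. It fell 1.65-fold (log2 -0.72, SE 0.14, adjusted p = 0.00237), the one mitochondrial fall. The other 12 mitochondrial members had changes from -0.39 (SARS2, for serine) to 0.40 (FARS2, for phenylalanine) and did not pass the test. Both treated libraries exceeded both Solvent libraries in every line for AARS2, CARS2, FARS2, LARS2 and YARS2, 5 of 35 members, where 8.9% of genes did. In the compartment pairs the cytosolic gene was the lower in 11 of 13, with a median of -1.03 and a widest value of -2.49 for alanine.

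**Figure D3:**
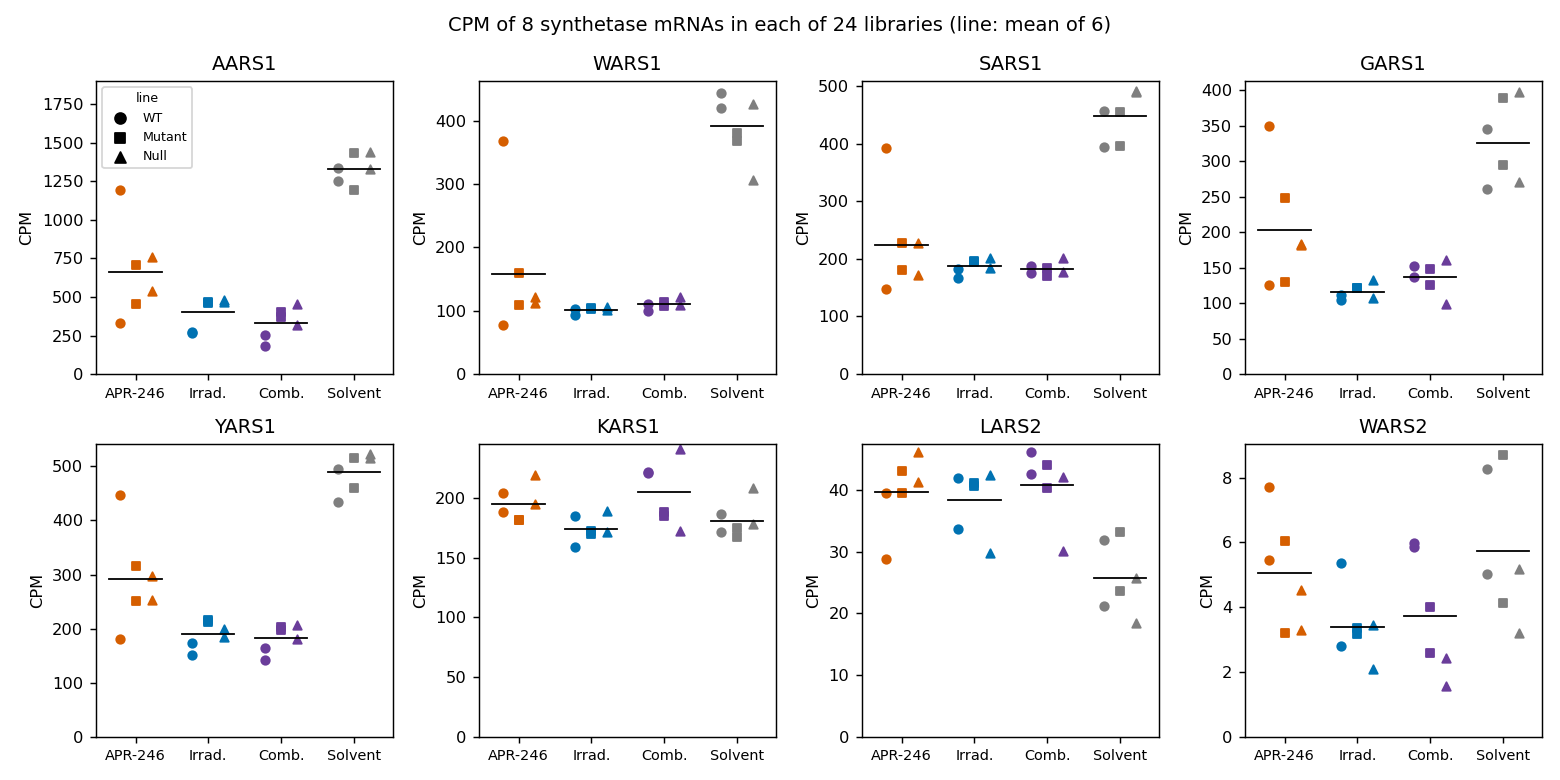
CPM of 8 synthetase genes in every library on axes that start at 0, by treatment with Solvent last, with the marker shape giving the line and a horizontal bar at the mean of 6. For AARS1 no combination library exceeds 452 CPM and no Solvent library is under 1195 CPM, while the KARS1 values of all 24 libraries lie between 159 and 241 CPM.

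With APR-246 alone fewer members passed the test, a difference from irradiation that was not itself tested by this count. Averaged over the lines 5 of 19 cytosolic members fell and 0 rose, and 1 of 16 mitochondrial members rose and 0 fell. This is 6 of 35 called, where 3.14% of genes tested were called, 1.19% higher and 1.95% lower. The median log2 change was -0.54 for the cytosolic list, 0.20 for the mitochondrial list and -0.01 for all genes. Without WT APR-246 library 1 the list medians were -0.69 and 0.34 in that order, and without WT APR-246 library 2 they were -0.37 and 0.09. Those that fell were WARS1, AARS1, SARS1, GARS1 and CARS1, each also called after irradiation against the same Solvent libraries. On CPM as deposited the calls of CARS1 and GARS1 ended, and without the filter on low values those of AARS1, CARS1 and LARS2 ended.

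WARS1 had 368 and 77.2 CPM in WT, 160.0 and 109 CPM in Mutant, and 122 and 112 CPM in Null with APR-246, against 307 to 444 CPM in Solvent. WT library 1 alone lay in the Solvent range, and the fall was 2.96-fold (log2 -1.57, SE 0.28, adjusted p = 0.00815). Its call was kept whichever library was left out. AARS1 had 1196 and 329 CPM in WT, 708 and 455 CPM in Mutant, and 759 and 540.5 CPM in Null with APR-246, against 1195 to 1439 CPM in Solvent, and fell 2.29-fold (log2 -1.20, SE 0.27, adjusted p = 0.0246). SARS1 had 393 and 148 CPM in WT, 228 and 180.0 CPM in Mutant, and 227 and 173 CPM in Null with APR-246, against 394 to 492 CPM in Solvent, and fell 2.2-fold (log2 -1.14, SE 0.25, adjusted p = 0.0211). On CPM as deposited SARS1 was the only member whose groups did not overlap, where 0.165% of genes tested lay below and 0.571% above. The margin was under 2 CPM in WT, between APR-246 library 1 and Solvent library 1. Their TMM factors, by which CPM are divided for the test, were 1.16 and 1.21 in that order. After scaling the APR-246 library is therefore the higher of the 2, and this separation is lost. GARS1 had 349 and 126 CPM in WT, 247.5 and 129.8 CPM in Mutant, and 184 and 182 CPM in Null with APR-246, against 261 to 398 CPM in Solvent, and fell 1.78-fold (log2 -0.83, SE 0.19, adjusted p = 0.0234). CARS1 had 173 and 63.9 CPM in WT, 124 and 79.9 CPM in Mutant, and 123 and 94.4 CPM in Null with APR-246, against 147 to 207 CPM in Solvent (log2 -0.82, SE 0.19, adjusted p = 0.0251). In all 5 genes WT library 1 was the highest APR-246 library. In deposited CPM both APR-246 libraries lay below both Solvent libraries in all 3 lines for AARS1, MARS1, SARS1 and WARS1. Of genes tested 0.861% did so, and for SARS1 this rests on the WT margin above.

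The remaining cytosolic members did not pass the limma test with APR-246 when all libraries were kept. YARS1 had 446 and 181 CPM in WT, 316 and 252 CPM in Mutant, and 298 and 254 CPM in Null with APR-246, against 434 to 523 CPM in Solvent (log2 -0.88, SE 0.24, adjusted p = 0.0597). EPRS1 had 209 and 89.7 CPM in WT, 129 and 63.2 CPM in Mutant, and 95.6 and 113 CPM in Null with APR-246, against 88.9 to 259 CPM in Solvent (log2 -0.54, adjusted p = 0.331). TARS1 had 205 and 76.7 CPM in WT, 153 and 86.1 CPM in Mutant, and 87.8 and 127 CPM in Null with APR-246, against 106 to 256 CPM in Solvent (log2 -0.55, adjusted p = 0.187). All these ranges overlapped. KARS1 had 188 and 204 CPM in WT, 182 and 181 CPM in Mutant, and 194 and 219 CPM in Null with APR-246, against 167 to 209 CPM in Solvent, a log2 change of 0.03 (SE 0.18, adjusted p = 0.965). The other 10 had changes from -0.58 (LARS1) to 0.32 (QARS1).

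LARS2 was the mitochondrial member called with APR-246. It had 28.8 and 39.5 CPM in WT, 43.1 and 39.5 CPM in Mutant, and 41.3 and 46.1 CPM in Null with APR-246, against 18.5 to 33.2 CPM in Solvent. It rose 1.47-fold (log2 0.56, SE 0.14, adjusted p = 0.0364), a call kept in 2 of the 24 fits that each left out 1 library. YARS2 had 14.9 and 22.1 CPM in WT, 15.7 and 17.8 CPM in Mutant, and 19.7 and 27.2 CPM in Null with APR-246, against 9.68 to 15.9 CPM in Solvent. It was the 1 of 35 members with both treated libraries above both Solvent libraries in every line. Of genes tested 3.11% were so placed, a share the members did not exceed. The log2 change of YARS2, 0.56, missed the threshold (adjusted p = 0.0746). MARS2 had 20.4 and 23.6 CPM in WT, 21.3 and 16.6 CPM in Mutant, and 21.8 and 25.6 CPM in Null with APR-246, against 9.001 to 25.5 CPM in Solvent (log2 0.35, adjusted p = 0.268). WARS2 had 7.70 and 5.46 CPM in WT, 6.05 and 3.22 CPM in Mutant, and 3.31 and 4.53 CPM in Null with APR-246, against 3.19 to 8.69 CPM in Solvent (log2 -0.22, adjusted p = 0.498). The other 12 had changes from -0.23 (NARS2) to 0.41 (FARS2). The cytosolic gene was the lower in 11 of 13 compartment pairs, with a median of -0.92.

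The APR-246 result rests on single libraries more than the other 2. Without WT APR-246 library 1, 9 members were called, 7 lower and 2 higher, where 6.41% of genes were called in the same fit, and the 6 above were among them. That fit, like each other that leaves a group with 1 library, takes the spread of the lone library from the other groups. WARS1 then fell by 1.89 (adjusted p = 8.5e-05) and AARS1 by 1.45 (adjusted p = 0.00208), and TARS1 (-0.74, adjusted p = 0.0361), YARS1 (-1.04, adjusted p = 0.0175) and YARS2 (0.71, adjusted p = 0.0116) were added. Without library 2 of any 1 of the 3 Solvent or 3 APR-246 groups, WARS1 was the single call left, and without WT APR-246 library 2 1.05% of genes were called.

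With the GC slope of each library as a covariate more members passed, as did more of all genes. The counts were 19 of 35 with APR-246, 22 after irradiation and 26 in the combination, where 27.4%, 37.3% and 43.8% of genes tested were called. Cytosolic members then fell in 12, 14 and 13 of 19 cases and rose in 0, 0 and 2, while mitochondrial members rose in 7, 4 and 7 of 16 cases and fell in 0, 4 and 4. The cytosolic members that rose were FARSA (0.22, adjusted p = 0.0165) and RARS1 (0.26, adjusted p = 0.017) in the combination. NARS1 fell after irradiation (-0.42, adjusted p = 0.00207) and in the combination (-0.34, adjusted p = 0.00601). KARS1 fell after irradiation by 0.23 (adjusted p = 0.0198). SARS2 fell after irradiation (-0.54, adjusted p = 0.000291) and in the combination (-0.47, adjusted p = 0.000518). It overlaps the more abundant MRPS12 and also AC011455.2, as described at the end. The changes of WARS1 and AARS1 were -2.07 and -1.91 after irradiation.

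**Figure D4:**
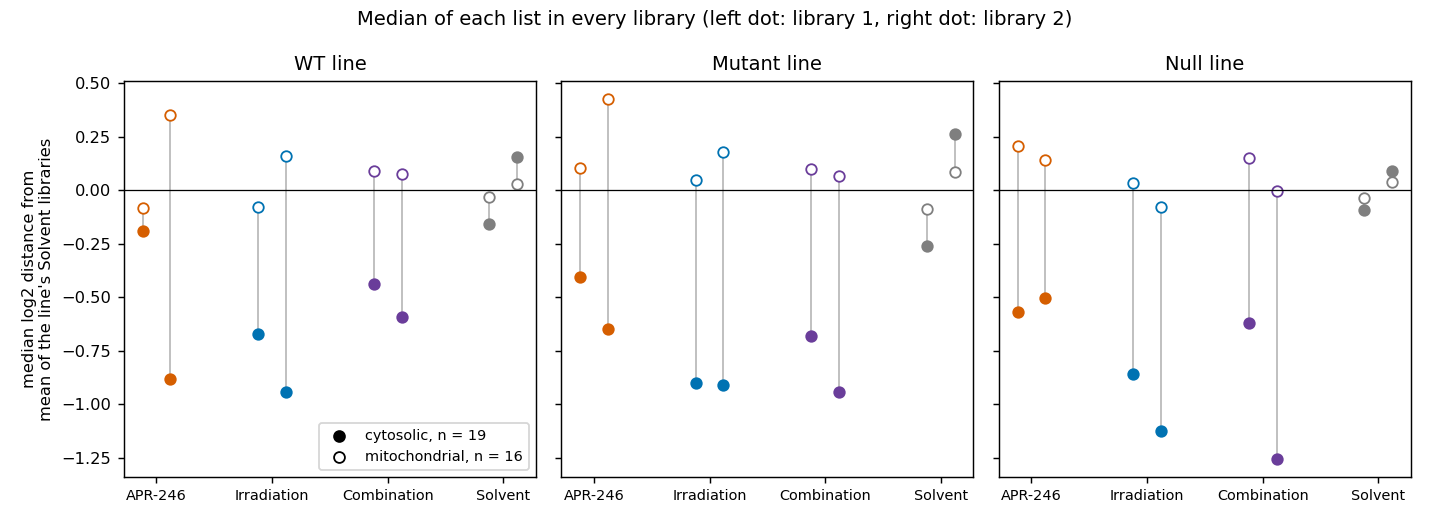
Median log2 distance from the Solvent mean of the same line for the cytosolic list (filled) and the mitochondrial list (open), 1 pair of points per library, by line and treatment with Solvent last. Cytosolic medians run from -1.12 to -0.67 after irradiation and from -0.26 to 0.26 in Solvent, while mitochondrial medians run from -0.08 to 0.18 after irradiation.

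The combination was compared with each single treatment, again over the mean of the lines. Against irradiation 0 members and 0 of all genes tested passed limma (0 members at an unadjusted p under 0.05), and edgeR and DESeq2 called 0 members. Against APR-246 0 members passed limma or edgeR and 4 passed DESeq2, where limma called 1.08% of genes. The shares of genes called by DESeq2 or at an unadjusted p under 0.05 are not given. Member counts of either kind, here and below, are therefore not set against all genes. In limma 9 members had an unadjusted p under 0.05, among them AARS1 with a log2 difference of -1.01 (SE 0.27, adjusted p = 0.0992). On the log2 scale a combined effect different from APR-246 plus irradiation passed for 0 members in limma, where 0.00484% of genes did. It passed for 0 members in edgeR and 3 in DESeq2. At an unadjusted p under 0.05 in limma there were 9 members. WARS1 had the largest difference from the sum, 1.58 (SE 0.39, adjusted p = 0.122). Without WT APR-246 library 1 the sum test was passed by 4 members (GARS1, LARS2, TARS1 and WARS1), where 2.27% of genes passed, and without WT APR-246 library 2 the test against APR-246 was passed by 3 (AARS1, CARS1 and GARS1), where 1.03% did. With the GC slope 1 member passed against irradiation, where 4.43% of genes did, 14 members passed against APR-246, where 17.1% of genes did, and 12 differed from the sum, where 15.4% did.

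By line, the medians of the cytosolic list after irradiation were -0.97 in WT, -0.93 in Mutant and -0.92 in Null. In the combination they were -0.47 in WT, -0.83 in Mutant and -0.94 in Null. With APR-246 they were -0.35 in WT, -0.49 in Mutant and -0.53 in Null. The WT value with APR-246 was -0.87 without WT APR-246 library 1 and -0.18 without library 2, each resting on the 1 library left, so the order of the lines changed with the library. The WT median after irradiation was -0.64 without WT Solvent library 1, and the Null median in the combination was -0.62 without Null Combination library 2. The mitochondrial medians lay between 0.03 and 0.23 in all 9 cases, and between -0.08 and 0.43 when 1 of the 4 libraries compared was left out. In WT with APR-246 the mitochondrial median was 0.06, with 0.36 without WT APR-246 library 1 and -0.07 without library 2. The test of a treatment effect that differs between lines was passed by 0 members in limma, edgeR and DESeq2, where limma called 0.0339% of genes, and 0 members had an unadjusted p under 0.05. With the GC slope 0 members passed, where 1.16% of genes did.

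With 2 libraries against 2, few members passed within a line. In irradiated WT cells the called members were AARS1 (4.79-fold lower, log2 -2.26, adjusted p = 0.025), WARS1 (4.37-fold lower, adjusted p = 0.036) and GARS1 (log2 -1.48, adjusted p = 0.0328), where 1.56% of genes were called, 0.968% higher and 0.59% lower. In WT cells given the combination they were AARS1, which was 7.22-fold lower (log2 -2.85, adjusted p = 0.00507), WARS1 (log2 -2.30, adjusted p = 0.0162), YARS1 (log2 -1.87, adjusted p = 0.0257), CARS1 (log2 -1.56, adjusted p = 0.0158) and GARS1 (log2 -1.31, adjusted p = 0.0457), where 2.23% of genes were called, 1.3% higher and 0.929% lower. In irradiated Null cells GARS1 was called (3.05-fold lower, adjusted p = 0.035), where 0.677% of genes were called, 0.411% higher and 0.266% lower. In Null cells given the combination the called members were AARS1 (log2 -1.93, adjusted p = 0.0478), GARS1 (log2 -1.43, adjusted p = 0.0364), CARS1 (log2 -1.39, adjusted p = 0.0403) and WARS2 (log2 -0.95, adjusted p = 0.0495), where 1.95% were, 1.07% higher and 0.876% lower. In Mutant limma called 0 members after irradiation, where 0.0774% of genes were called, and 0 in the combination, where 0.348% were. There edgeR called 0 and DESeq2 6 and 8. Members at an unadjusted p under 0.05 in Mutant numbered 14 in each, a count not set against all genes. With APR-246 limma and edgeR called 0 members in each line, where limma called 0%, 0% and 0.131% of genes in WT, Mutant and Null. At an unadjusted p under 0.05 there were 4, 8 and 10 members in that order, counts not set against all genes. DESeq2 called 0, 0 and 4. With the GC slope the counts in WT, Mutant and Null were 15, 15 and 17 after irradiation, where 18.1%, 13.5% and 20% of genes were called. They were 17, 15 and 19 in the combination, where 21.7%, 16.5% and 24.6% were, and 0, 2 and 14 with APR-246, where 0%, 6.74% and 15.1% were. Without WT APR-246 library 1, WARS1 fell in WT with APR-246 (log2 -2.43, adjusted p = 0.0171, where 0.599% of genes were called), a value from 1 treated library whose spread was taken from the other groups. WARS1 then also fell in Null with APR-246 (adjusted p = 0.0185, where 1.05% of genes were called). In the same fit the counts in WT, Mutant and Null were 4, 2 and 4 after irradiation, where 2.25%, 1.04% and 1.74% of genes were called, and 6, 4 and 5 in the combination, where 2.64%, 1.37% and 2.91% were, and these 6 member counts were the same without WT APR-246 library 2. The WT count after irradiation was 0 without any 1 of the 4 WT libraries compared, and the WT count in the combination was 0 without library 2 of WT Solvent or of WT Combination. In Null the counts were 0 without any 1 of the 4 libraries compared, and 0 also without some libraries of other groups, which share the estimate of spread. From WT libraries alone or Null libraries alone 0 members were called, and edgeR called 0 in WT after irradiation and 0 in Null in either comparison.

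Averaged over the 4 treatments, 2 of 35 members differed between lines, where 18.4% of genes tested did. CARS2, for mitochondrial cysteine, ran from 19.5 to 33.3 CPM in Mutant, against 39.2 to 51.9 CPM in Null, with a log2 difference of -0.84 (adjusted p over the 3 lines = 0.00156). The 8 Mutant libraries lay below the 8 Null libraries. WARS2 was higher in WT than in Null by 0.69 and in Mutant than in Null by 0.33 (adjusted p over the 3 lines = 0.00174). The other 33 did not pass the test. DESeq2 called 5, 1 was called on CPM as deposited, and 16 were called with the GC slope, where 49.8% of genes were. Without WT APR-246 library 1, 4 were called, AARS1 and YARS2 being added, where 15% of genes were, and without library 2 the call of YARS2 was added, where 18.1% were.

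Genes that act beside the synthetases were read from lists. Of 8 genes listed for the sensing of uncharged tRNA and for ATF4 output, 6 fell with each treatment, ATF4, DDIT3, ASNS, TRIB3, CHAC1 and PSAT1. Charging of tRNA was not measured. Of all genes tested 1.95% fell with APR-246, 6.13% after irradiation and 6.29% in the combination. The transcript of ATF4 ran from 283 to 839 CPM with APR-246, from 261 to 342 CPM after irradiation and from 277 to 426 CPM in the combination, against 676 to 885 CPM in Solvent. It fell by 0.92 (adjusted p = 0.0256), 1.41 (adjusted p = 0.000675) and 1.34 (adjusted p = 0.00074) on the log2 scale in that order. ASNS, asparagine synthetase and a known ATF4 target, had log2 changes of -1.82, -2.48 and -2.79. CHAC1, a glutathione-degrading enzyme, had -2.64, -2.81 and -3.04. The sensor kinase EIF2AK4 (0.20, 0.11 and 0.21) and its partner GCN1 (0.19, 0.18 and -0.12) did not pass the test in any treatment. EIF2AK4 was called higher in all 3 with the GC slope (0.25, 0.32 and 0.26, adjusted p = 0.0116, 0.00207 and 0.00515), against the background of 27.4%, 37.3% and 43.8% of genes given above.

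Of the 3 scaffolds of the multisynthetase complex, EEF1E1 fell after irradiation (log2 -0.65, adjusted p = 0.0241) and AIMP1 and AIMP2 did not pass. Without the GC slope 3.14% of all genes were called with APR-246, 13% after irradiation and 13.9% in the combination. These shares are the background for the calls of the lists in this paragraph. When the GC slope was included EEF1E1 fell with APR-246 too (-0.58, adjusted p = 0.0051), and AIMP2 fell after irradiation (-0.415, adjusted p = 0.000506). Among 11 mitochondrial formylation, amidotransfer and translation factors, MTFMT, which formylates the initiator tRNA charged by MARS2, rose with APR-246 (log2 0.51, adjusted p = 0.037) and in the combination (log2 0.46, adjusted p = 0.0256). The initiation factor MTIF3 fell after irradiation (log2 -0.82, adjusted p = 0.0124) and in the combination (log2 -0.61, adjusted p = 0.0486). Of 3 proofreading genes DTD1, a deacylase for tRNA with D-amino acids, fell after irradiation (log2 -0.77, adjusted p = 0.0165) and in the combination (log2 -0.70, adjusted p = 0.0264). Of the 4 cytosolic elongation factors tested, EEF1A1 fell in the combination (log2 -0.70, adjusted p = 0.0443). In the fit with the GC slope EEF1A1 and EEF1B2 fell with APR-246, all 4 (EEF1A1, EEF1B2, EEF1D and EEF2) fell after irradiation, and EEF1A1, EEF1B2 and EEF2 fell in the combination, with changes from -0.69 to -0.26. Of the mitochondrial factors 4, 6 and 4 of 11 were then called in the 3 treatments, 2, 1 and 2 of them higher, and DTD1 fell in all 3. In the same fits 27.4%, 37.3% and 43.8% of genes tested were called, the background for these factors and for the elongation factors. Of the interferon-inducible genes set beside WARS1, IFIT1 rose after irradiation (log2 2.18, adjusted p = 1.07e-06) and in the combination (log2 2.62, adjusted p = 6.91e-08), as did IFI6 (adjusted p = 0.000564 and 0.000621), while WARS1 fell in both. IRF1 did not pass, while with the GC slope it fell in all 3 treatments (-0.38, -0.33 and -0.21, adjusted p = 0.00102, 0.00385 and 0.0332) and IFIT1 rose with APR-246 too (0.51, adjusted p = 0.00165).

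Some members overlap another gene in the annotation, and the counting strand is not given in the sources used here. MARS1 overlaps DDIT3 over 982 bases. DDIT3 reached at most 78.55 CPM in any library and fell itself, and its part in the MARS1 change was not tested. WARS2 overlaps an antisense RNA, AL359915.2, over 276 bases, which reached 13.7 CPM, above any value of WARS2, so the WARS2 values are uncertain. SARS2, at most 8.83 CPM, overlaps MRPS12 over 349 bases, which reached 185.5 CPM. SARS2 also shares 15493 bases of gene span with AC011455.2, a protein-coding gene on the same strand, which reached 0.0184 CPM. The SARS2 values are therefore uncertain too. EARS2, at most 62.8 CPM, overlaps UBFD1 over 370 bases, which reached 121.6 CPM, and KARS1 overlaps TERF2IP over 858 bases, which reached 85.4 CPM. YARS2, at most 32.6 CPM, overlaps DNM1L over 18161 bases of gene span, introns included, and DNM1L reached 70.85 CPM. CARS2, at most 55.98 CPM, overlaps ING1 over 868 bases, and ING1 reached 77.96 CPM. HARS1 and HARS2 overlap each other over 437 bases. Reads from a stretch that both genes use cannot be told apart there, so the YARS2 and CARS2 values are uncertain as well. WARS1 shares 388 bases with WDR25, which reached 16.1 CPM, and YARS1 shares 1387 bases with S100PBP, which reached 19.7 CPM. VARS2, at most 0.627 CPM, shares 5865 bases of gene span with GTF2H4 on the same strand, which reached 0.478 CPM.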

How the data were processed

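RNA of 24 libraries was measured. The build GRCh38.p13 and the tools FastQC, STAR, Subread and featureCounts are those the authors list, per the submitters' processing notes. Versions, annotation release and counting strand are not given in the sources used here. The deposited values are in CPM, counts per 1000000 assigned reads, and all 24 libraries were used. Dividing by the smallest step gave whole reads for 100% of values within 0.05 of a read. Even counts made up 74.5 to 81.5% of values of 2 to 9 reads, so mates of a pair appear to have been counted singly. A floor of 3 reads is 0.0517 to 0.0564 CPM, which covers counting error only.

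Symbols were matched for 60419 of 60675 identifiers. Coordinates, exon lengths and GC percent came from GENCODE 29, and promoters from RefSeq. A low-value filter (filterByExpr, count minimum 10) left 20668 genes. Because the unit is CPM, the test was limma-trend with robust variance (limma 3.58.1, edgeR 4.0.16, R 4.3.3). Input was the log2 of CPM, scaled by TMM, with 0.5 added, on which changes of low genes are understated, with 12 groups and 12 residual degrees of freedom. Calls were made at 0.05 after Benjamini-Hochberg adjustment across the whole table. Counts of groups that do not overlap used CPM as deposited, and TMM factors spanned 0.741 to 1.28. The edgeR quasi-likelihood test and DESeq2 1.42.0 on recovered reads, other pseudocounts, no filter, no TMM, a replicate block, a GC slope and single libraries left out were alternatives.

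Tested on simulated data for irradiation against Solvent, with 200 of 20668 genes changed, limma recovered 68% of 2-fold and 91% of 4-fold changes with 9 false calls. With the GC slopes of the libraries simulated too, it recovered 35% and 87% with 0 false calls.

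The members and lists were chosen with earlier results of these data known. Values of every library are given for the called members with the largest change (up to 8 cytosolic and 4 mitochondrial), for KARS1, GARS1 and WARS1. Groups came from the labels, which do not say whether replicates are separate cultures, so p-values measure only the spread between these samples. A few genes of these lists and checks are not reported here.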

Additional observations from a re-analysis of the deposited data

How the results depend on the processing

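Values are counts of members called unless stated. In this section shares of all genes called are given only for the GC slope used by itself. The counts under the other settings are therefore not set against all genes. Of 689 values under alternative settings 545 stayed the same, 144 moved and 0 reversed. A count stayed the same if it was equal or within 1.5 times. A difference of list medians did so if it changed by less than the SD between libraries of that treatment. Only the differences of medians could reverse, since a count has no sign. The cytosolic minus mitochondrial median stayed below 0 throughout, from -1.033 to -0.463 with APR-246, from -1.216 to -0.927 after irradiation and from -0.870 to -0.735 in the combination with single libraries left out. The extremes with APR-246 came without WT APR-246 library 1 and library 2. The edgeR test called the same members as limma for the 3 treatments averaged over lines, 0 in WT and 0 in Null after irradiation, and 0 in Null in the combination. Among members with no call, the sign changed under some setting for 8 of 29 with APR-246, 9 of 20 after irradiation and 7 of 19 in the combination.

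DESeq2 called 10 with APR-246, 4 with APR-246 in Null, 6 in WT, 6 in Mutant and 10 in Null after irradiation, 9, 8 and 9 in the combination in the same lines, 4 for the combination against APR-246, 3 beyond additive and 5 for the line difference. Without TMM 9 were called after irradiation, 10 in the combination and 1 between lines. Without the filter 3 were called with APR-246 and 1 in the combination in Null. A pseudocount of 0.1 gave 2 in the combination in Null. From WT alone or Null alone 0 were called after irradiation and 0 in the combination.

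With the GC slope 19 were called with APR-246, 22 after irradiation and 26 in the combination, where 27.4%, 37.3% and 43.8% of genes were. By line it gave 2 in Mutant and 14 in Null with APR-246, 15 in WT, 15 in Mutant and 17 in Null after irradiation, and 17, 15 and 19 in the combination. It gave 1 for the combination against irradiation, 14 against APR-246, 12 beyond additive and 16 between lines. The cause of these differences was not tested.

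Replicate numbers were not taken to pair the libraries. Deviations of libraries with the same number correlated at 0.529 to 0.947 over 55 pairs of groups, but at -0.722 to -0.253 over the 11 pairs with Null APR-246. With the replicate block over all groups 15 were called with APR-246, 3 with APR-246 in Null, 11 in WT, 12 in Mutant and 11 in Null after irradiation, 9, 12 and 14 in the combination, 3 for the combination against APR-246, 5 beyond additive and 11 between lines. With the replicate block within each line these were 12, 1, 9, 6, 10, 9, 10, 14, 2, 2 and 9. With the replicate block and the GC slope 19 were called with APR-246 and 26 in the combination, 10 and 14 with APR-246 in Mutant and Null, 18, 15 and 17 after irradiation by line, 17, 17 and 19 in the combination by line, 14 against APR-246, 13 beyond additive and 17 between lines. The block changed the other counts by less than 1.5 times.

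With single libraries left out, counts ran from 1 to 9 with APR-246, 12 to 17 after irradiation and 12 to 16 in the combination. In WT, Mutant and Null they ran from 0 to 1, 0 to 0 and 0 to 1 with APR-246, 0 to 4, 0 to 2 and 0 to 4 after irradiation, and 0 to 6, 0 to 4 and 0 to 5 in the combination. They were 0 to 0 for the combination against irradiation, 0 to 3 against APR-246, 0 to 4 beyond additive, 0 to 0 for the interaction and 2 to 4 between lines. The highest counts above 0 by line, beyond additive and between lines came without WT APR-246 library 1 (after irradiation and in the combination by line, and in Null with APR-246, also without library 2), and that against APR-246 without library 2. VARS2 was the member near the floor of 3 reads, and the cause of its low values was not tested.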
